A study of Mus musculus with 6 samples.

Results

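The BTG/TOB and GADD45 genes are 8 small antiproliferative and stress-response genes: Btg1, Btg2, Btg3, Tob1 and Tob2 of the BTG/TOB family, and Gadd45a, Gadd45b and Gadd45g. All 8 were found by symbol among the 32061 genes of the count table, and all 8 passed the filter on low counts. They were chosen by symbol and selected on their scaled counts in these same competent and depleted samples, so their own differences are described below without a test. The 6 samples hold messenger RNA of biliary epithelial cells, the lining cells of the mouse bile duct, grown from hand-picked ducts as organoids and then as flat cultures on collagen. In the 3 cilia-competent samples the cells received no 4OHT (the usual short name of 4-hydroxytamoxifen, which switches on tamoxifen-dependent Cre recombinases), and in the 3 cilia-depleted samples they received it. The labels give neither the deleted gene, the Cre driver, the strain nor the age of the mice, and no group without cilia loss received 4OHT, so the drug and the loss of cilia cannot be told apart. Whether replicates of a group were separate animals or cultures is not stated in the labels, so errors and p-values measure a spread that may be technical only.

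BTG and TOB proteins share an N-terminal BTG domain that binds the CAF1 deadenylases of the CCR4-NOT complex, encoded by Cnot7 and Cnot8. Through this contact they speed the shortening of poly(A) tails, and their overexpression slows entry into the cell cycle. TOB proteins also bind the cytoplasmic poly(A)-binding protein, which brings them to mRNAs. GADD45 proteins are small acidic proteins induced by DNA damage, cytokines and other stress. They bind and activate the kinase MAP3K4 upstream of p38 and JNK, and they bind PCNA, the CDK inhibitor p21 and the CDK1 complex with cyclin B. Several genes of both families are classical p53 or FoxO targets, and Btg2, Gadd45a and Gadd45b also belong to the genes that respond quickly to growth factors or stress.

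Promoter sequences are shown for the 5 members with a match to the TATA box core or to the cyclic AMP response element, a choice made after the matches were seen. The bases come from RefSeq (GRCm38.p6), run 5′ to 3′ on the strand of the gene and end at or before its first annotated base. All 8 members were found in the RefSeq promoter table, Btg3 with more than 1 start site. In Btg2 (chr1:134079156-134079405, minus strand) capitals mark the CCAAT boxes, the full cyclic AMP response element TGACGTCA and an EGR site. In Btg1 (chr10:96616791-96617000, plus strand) they mark a FoxO site, the element's half-sites (TGACG, here on the reverse strand), a CCAAT box on the reverse strand and the TATA box core. In Tob1 (chr11:94211344-94211453, plus strand) they mark a half-site and the TATA box core. In Gadd45b (chr10:80929946-80930072, plus strand) they mark CCAAT boxes, the TATA box core and an EGR site on the reverse strand. In Gadd45g (chr13:51846565-51846674, plus strand) they mark a CCAAT box and the TATA box core.
Btg2: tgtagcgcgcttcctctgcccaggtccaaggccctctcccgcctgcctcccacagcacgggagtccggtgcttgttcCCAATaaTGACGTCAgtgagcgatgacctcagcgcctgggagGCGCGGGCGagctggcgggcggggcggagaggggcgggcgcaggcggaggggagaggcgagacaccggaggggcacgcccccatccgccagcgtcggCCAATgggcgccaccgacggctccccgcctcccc
Btg1: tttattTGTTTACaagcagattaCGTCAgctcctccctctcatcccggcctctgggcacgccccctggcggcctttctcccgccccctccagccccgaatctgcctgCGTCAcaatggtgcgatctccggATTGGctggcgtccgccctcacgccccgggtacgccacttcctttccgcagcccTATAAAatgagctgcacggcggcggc
Tob1: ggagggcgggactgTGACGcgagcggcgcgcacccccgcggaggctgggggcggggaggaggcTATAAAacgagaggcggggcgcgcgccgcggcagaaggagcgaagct
Gadd45b: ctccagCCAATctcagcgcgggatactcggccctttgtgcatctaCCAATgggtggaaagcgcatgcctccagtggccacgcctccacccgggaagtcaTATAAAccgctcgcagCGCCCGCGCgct
Gadd45g: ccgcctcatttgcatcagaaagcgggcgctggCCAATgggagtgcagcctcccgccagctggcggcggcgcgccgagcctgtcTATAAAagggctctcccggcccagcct

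Each window from 250 bases before to 50 bases after a RefSeq start was searched on both strands, and the same search was run on all 32817 windows of that length. CCAAT was present for 7 of the 8 genes, Tob2 being the exception, and 37.4% of all windows held it. The TATA box core TATAAA was present in Btg1, Tob1, Gadd45b and Gadd45g, between bases -47 and -21, and 13.6% of all windows held it. TGACG was present in Btg1, Btg2 and Tob1 (20.8% of all windows). The full TGACGTCA, which contains it on both strands, was present in Btg2 alone among the members (1.79% of all windows). The EGR site, searched as GCGNGGGCG, was present in Btg2 and Gadd45b (5.56% of all windows). The FoxO site GTAAACA was present in Btg1 (3.65%), a p53 half-site in Gadd45a (8.36%) and an NF-kB site in Btg3 (8.46%). No member held the AP-1 site TGANTCA (7.81%) or a serum response element (1.63%) in this window. The half-site, the TATA box core and the CCAAT box were added to the search after the promoters had been seen. A match is a stretch of letters and was not tested as a binding site.

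**Figure D1:**
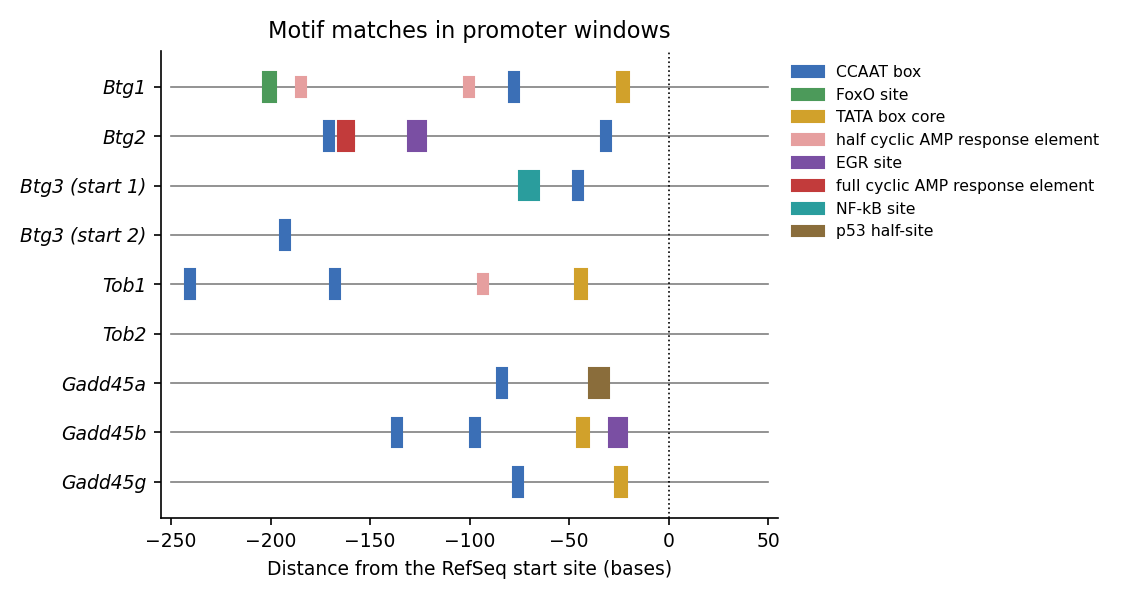
Positions of motif matches (coloured boxes) in the promoter windows of the 8 genes, with distance from the RefSeq start site in bases on the horizontal axis and a line for each window, Btg3 having more than 1. Tob2 has no match, 7 genes have a CCAAT box and 4 have the TATA box core close to the start.

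The depleted samples had higher scaled counts of Btg2, Gadd45g, Gadd45b, Gadd45a, Btg1, Tob1 and Tob2 than any competent sample, whereas Btg3 overlapped between the groups. Levels are given as CPM, the library-scaled count, with TMM scaling, which corrects library size for differences in composition. Counts of the members were 1491 or more in every sample, far above the floor of 3 counts, which corresponded to 0.0797 to 0.119 CPM. The median log2 change of the 8 genes was 1.89, against -0.01 for all 13839 genes tested. Of the 8 genes, 7 did not overlap between the groups and were higher in depleted samples, as were 36.4% of all genes tested. A difference above 2-fold was present in 6 of the 8, and 7.43% of all genes rose by that much. Both counts describe genes chosen on this contrast, and nothing is read from them.

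**Figure D2:**
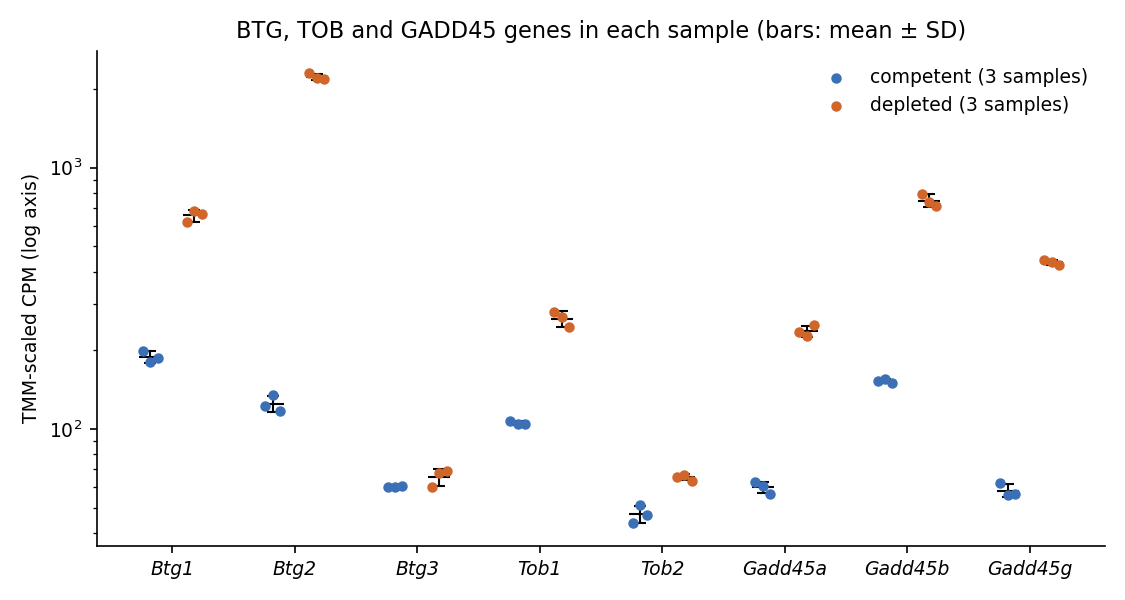
TMM-scaled CPM of the 8 genes (log axis) in the 3 competent (blue) and 3 depleted (orange) samples, with black bars for mean ± SD. Btg2 moves furthest, from 125 to 2231 CPM, and Btg3 is the gene whose groups overlap.

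Btg2 (ENSMUSG00000020423; GRCm38 chromosome 1, 134075170 to 134079120, minus strand) encodes the BTG protein that was first described as an immediate-early, p53-inducible antiproliferative factor. Competent samples had 122, 134 and 117 CPM and depleted samples 2299, 2205 and 2187 CPM. Every depleted sample lay far above every competent sample, and the depleted samples were close to each other. The means were 125 ± 8.84 and 2231 ± 60.0 CPM (SD, n = 3 each), a 17.9-fold difference (log2 change 4.16, SE 0.060). Among all genes tested, the Btg2 log2 change ranked 20 from the top. Its main transcript has 2 exons, 474 coding nt and a 3′ untranslated region of 2202 nt.

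Btg1 (ENSMUSG00000036478; chromosome 10, 96617006 to 96622809, plus strand) encodes the closest relative of Btg2, which is linked to quiescence and to FoxO activity in other cells. Its CPM was 199, 179.9 and 187 in competent and 617, 684 and 668 in depleted samples. The groups were well apart, with means of 189 ± 9.53 and 656 ± 35.0 CPM (SD, n = 3). The difference was 3.48-fold (log2 change 1.80, SE 0.053). The rows Btg1-ps1 and Btg1-ps2, pseudogenes by symbol but annotated as protein-coding, had 0 counts in every sample.

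Btg3 (ENSMUSG00000022863; chromosome 16, 78332637 to 78377192, minus strand) encodes a more distant family member that can bind the cell cycle factor E2F1. Competent samples had 60.0, 59.7 and 60.6 CPM and depleted samples 59.9, 67.8 and 68.7 CPM. The first depleted sample fell within the competent range and the others lay above it. The means were 60.1 ± 0.484 and 65.4 ± 4.86 CPM (SD, n = 3; log2 change 0.12, SE 0.054), and with total counts alone as the scale the log2 change was -0.0046. With the transcript-length trend of these libraries removed it was 0.39. Of the Btg3 exon length, 17.3% overlaps Cxadr on the opposite strand, whose level was 416 ± 8.47 CPM in competent and 373 ± 15.8 CPM in depleted samples. Whether counting used the strand is not given in the sources used here, and without it reads of the overlap cannot be told apart.

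Tob1 (ENSMUSG00000037573; chromosome 11, 94211454 to 94215495, plus strand) encodes a larger protein that joins the BTG domain to a tail binding poly(A)-binding protein. Its CPM was 107, 105 and 104 in competent and 279, 269 and 245 in depleted samples. The competent samples were almost equal, the depleted samples spread more, and the groups did not overlap. The means were 105 ± 1.61 and 264 ± 17.8 CPM (SD, n = 3), a 2.50-fold difference (log2 change 1.32, SE 0.051). Tob2 (ENSMUSG00000048546; chromosome 15, 81848272 to 81858796, minus strand), its paralog with the same domain plan, had 43.8, 51.0 and 46.8 CPM in competent and 65.7, 66.7 and 63.4 CPM in depleted samples. The Tob2 groups did not overlap, but they lay much closer than those of Tob1. The Tob2 means were 47.2 ± 3.61 and 65.3 ± 1.68 CPM, a 1.38-fold difference (log2 change 0.47, SE 0.056).

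Gadd45a (ENSMUSG00000036390; chromosome 6, 67035096 to 67037457, minus strand), the founding member and a standard p53 target, had 62.6, 60.3 and 56.4 CPM in competent and 236, 226 and 249 CPM in depleted samples. All depleted samples lay far above all competent samples. The means were 59.8 ± 3.13 and 237 ± 11.5 CPM (SD, n = 3), a 3.97-fold difference (log2 change 1.99, SE 0.052). On the opposite strand E230016M11Rik overlaps 19.1% of the Gadd45a exon length, but this RNA had 1.12 ± 0.235 and 1.87 ± 0.44 CPM in the competent and depleted samples, a small fraction of either Gadd45a level.

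Gadd45b (ENSMUSG00000015312; chromosome 10, 80930073 to 80932204, plus strand), known as a target of TGF-beta and of NF-kB, had 153, 155 and 149 CPM in competent samples. In depleted samples it had 795, 738 and 711 CPM. The groups were far apart, with means of 152 ± 2.69 and 748 ± 42.9 CPM (SD, n = 3) and a 4.91-fold difference (log2 change 2.30, SE 0.050). Gadd45g (ENSMUSG00000021453; chromosome 13, 51846678 to 51848468, plus strand), the cytokine-responsive member, had 61.8, 55.9 and 56.5 CPM in competent and 443, 435 and 425 CPM in depleted samples. Its groups were the furthest apart of the GADD45 genes on the log2 scale. The means were 58.1 ± 3.28 and 435 ± 9.16 CPM (SD, n = 3), a 7.49-fold difference (log2 change 2.90, SE 0.051). No other annotated gene overlaps the exons of Gadd45b or Gadd45g.

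Ordered by log2 change, the genes ran from Btg2 through Gadd45g, Gadd45b, Gadd45a, Btg1 and Tob1 to Tob2 and Btg3. The GADD45 genes had a median of 2.30 and the BTG/TOB genes a median of 1.32. The log2 change ranked 61 for Gadd45g, 126 for Gadd45b, 177 for Gadd45a, 239 for Btg1 and 532 for Tob1 among the 13839 genes tested. Tob2 and Btg3 ranked 3107 and 5682. The libraries differed by transcript length: coding genes with main transcripts of 204 to 1743 nt had a median log2 change of -0.35 and those of 4973 nt or more a median of 0.25. The GADD45 main transcripts, of 1071 to 1284 nt, belong to the first of these classes, and the median over tested coding genes was 3034 nt. With that length trend removed, the log2 changes were 3.24 for Gadd45g, 2.59 for Gadd45b and 2.30 for Gadd45a. Btg1, whose main transcript has 5001 nt, moved the other way, to 1.62, and Btg2 stood at 4.12. The last places of the order changed over, with 0.39 for Btg3 and 0.33 for Tob2. With total counts alone, which moved the median of all genes to -0.13, the log2 changes ran from -0.0046 for Btg3 to 4.03 for Btg2.

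**Figure D3:**
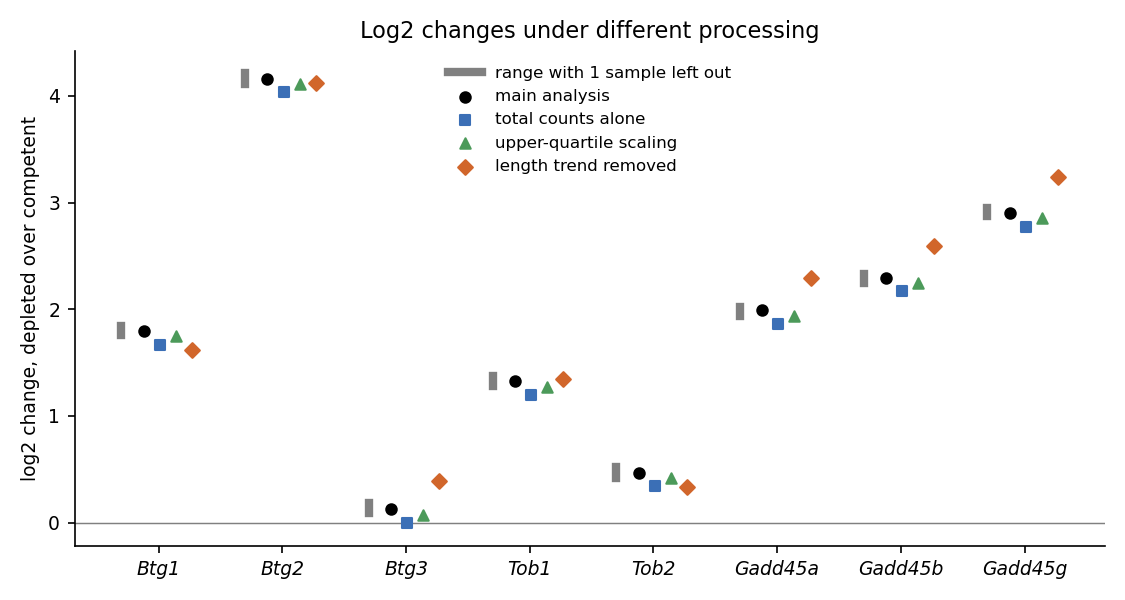
Log2 change (depleted over competent) of the 8 genes in the main analysis, with total counts alone, with upper-quartile scaling and with the transcript-length trend removed; grey bars span the values with 1 sample left out. Btg3 sits close to 0 except with the length trend removed (0.39), a correction under which the GADD45 genes stand at 2.30 to 3.24.

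To compare levels between genes, CPM was divided by the exon length of each gene in kb. In competent cells Gadd45b had the highest level of the 8, at 95.9 ± 1.69 CPM per kb (SD, n = 3). Gadd45g (49.5 ± 2.79), Tob1 (46.1 ± 0.704) and Btg2 (45.4 ± 3.22) followed, of which Btg2 overlapped both of the others between samples. Btg1 (35.8 ± 1.81) and Gadd45a (33.9 ± 1.78) overlapped each other, and Btg3 (15.0 ± 0.121) and Tob2 (7.08 ± 0.541) were lowest.

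In depleted cells the order by CPM per kb was led by Btg2, at 813 ± 21.9, ahead of Gadd45b (471 ± 27.0) and Gadd45g (371 ± 7.81). Gadd45a (134 ± 6.53), Btg1 (124 ± 6.63) and Tob1 (115 ± 7.80) came next, and each overlapped its neighbour. Btg3 (16.3 ± 1.21) and Tob2 (9.79 ± 0.253) were again lowest. Among all genes tested, ranked by CPM per kb, Btg2 moved from position 1150 in competent to position 35 in depleted cells, and Gadd45b from 501 to 75. Part of the order in competent cells depends on the length used. Per kb of the main transcript, Gadd45a had 48.9 ± 2.56 CPM there, a higher mean than Tob1 (46.1) and Btg2 (45.4), and Btg3 had 42.5 ± 0.342, a higher mean than Btg1 (37.7 ± 1.90). In depleted cells Gadd45a had 193.8 ± 9.42 CPM per kb of the main transcript, against 131 ± 7.0 for Btg1, and Btg3 had 46.3 ± 3.44. Tob2 was lowest with either length, at 11.4 ± 0.869 and 15.7 ± 0.406 CPM per kb of the main transcript in competent and depleted cells.

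Summed over the family, BTG/TOB CPM per kb was 149 ± 2.89 in competent and 1079 ± 22.2 in depleted cells (SD, n = 3), a ratio of 7.23. Btg2 made up 30.4% ± 1.72 of this sum in competent and 75.3% ± 0.745 in depleted cells. Tob1 went from 30.9% ± 0.575 to 10.7% ± 0.518 and Btg1 from 24.0% ± 1.28 to 11.5% ± 0.80. Per kb of the main transcript, competent shares were 25.2% for Tob1, 24.8% for Btg2, 23.2% for Btg3 and 20.6% for Btg1. Btg2 then had 72.5% in depleted cells. With either length the competent cells thus held similar amounts of several family members per kb, and the depleted cells mainly Btg2. GADD45 CPM per kb of exon summed to 179 ± 5.04 and 975 ± 32.1, a ratio of 5.44. Gadd45b was the main member in both groups (53.5% ± 1.19 and 48.2% ± 1.2), Gadd45g went from 27.6% ± 1.02 to 38.0% ± 0.584, and Gadd45a from 18.9% ± 0.478 to 13.8% ± 0.923.

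**Figure D4:**
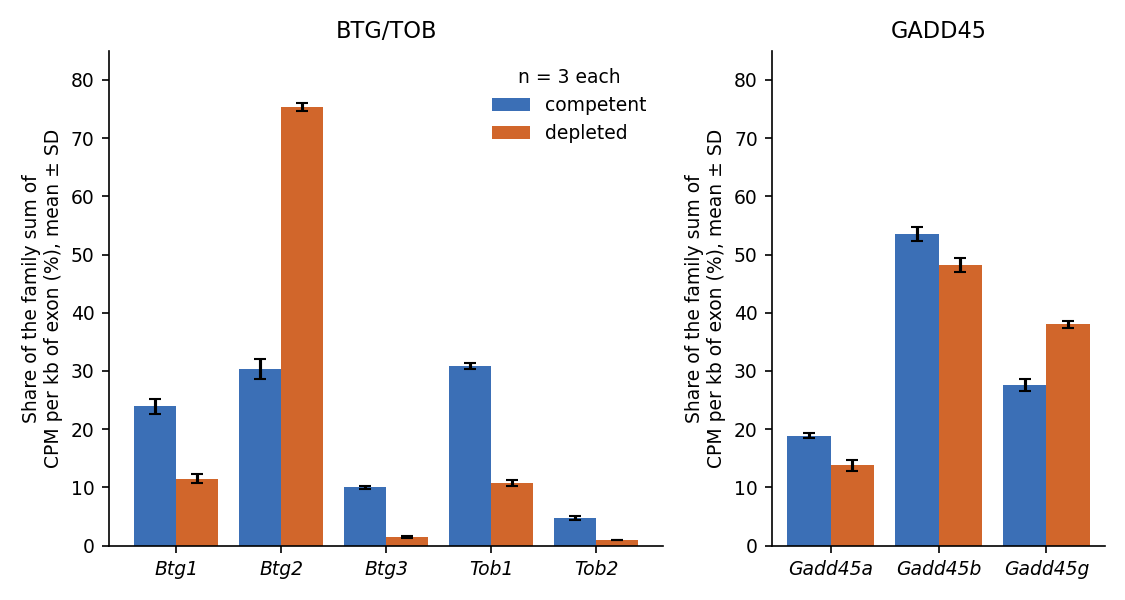
Share of each member in the summed CPM per kb of exon of its family (%, mean ± SD, n = 3 per group), competent in blue and depleted in orange. Btg2 rises from 30.4% to 75.3% of the BTG/TOB sum, while Gadd45b stays the main GADD45 member.

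The members have few exons and short coding regions, features that the selection did not use. Main transcripts have 2 exons in Btg1, Btg2, Tob1 and Tob2, 4 in each GADD45 gene and 5 in Btg3, against a median of 9 for tested coding genes. Coding lengths ran from 474 nt (Btg2) to 1086 nt (Tob1), against a median of 1396.5 nt. Their whole transcripts were not all short: the main transcripts of Btg1 (5001 nt) and Tob2 (4151 nt) exceeded the median of 3034 nt, with 3′ untranslated regions of 4169 and 2460 nt. The AU-rich pentamer ATTTA, a letter pattern common in unstable mRNAs, occurred in the 3′ untranslated region of 6 of the 8, with 11 copies in Btg1 and 5 in Btg2, and in 66.8% of tested coding genes. Gadd45b and Gadd45g had none, and the longer pattern TTATTTATT occurred in no member and in 7.39% of tested coding genes.

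The genes whose profile over the 6 samples was most like that of Btg2, by Euclidean distance on log2 CPM centred on the competent mean, were Nr1d1, Dusp1, Gdf15, Jun and Csf2. Their distances were 0.19, 0.39, 0.43, 0.49 and 0.50. Nr1d1, which encodes a clock repressor, had 32.8 ± 2.27 CPM in competent and 627 ± 40.0 CPM in depleted cells (19.1-fold). For Gadd45g the nearest were Irf2bp2, Bhlhe40, Nfkbia, Nfil3 and Rasgef1b, at distances of 0.08 to 0.23. Irf2bp2, which encodes a transcriptional corepressor, had 62.9 ± 1.95 CPM in competent and 466 ± 1.42 CPM in depleted cells (7.41-fold). The search covered 10472 genes, and the distance is mainly set by the size of the group difference.

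Partner and upstream genes were read from the test over all genes (edgeR quasi-likelihood, Benjamini-Hochberg adjustment, threshold 0.05). It called 69.2% of 13839 genes, 34.9% as higher and 34.3% as lower in depleted cells; with total counts alone, 39.1% of the called genes were higher against 50.5% here. Of 11 genes listed for CCR4-NOT, the complex to which BTG/TOB proteins bind, 7 rose and 3 fell, with 1 short of the threshold. The median of the list was 0.19 (log2). Cnot4, which encodes a ubiquitin ligase, rose 2.62-fold from 20.8 ± 0.653 to 54.3 ± 3.72 CPM (SD, n = 3, adjusted p = 2.74e-10). Cnot3 rose 1.57-fold (adjusted p = 3.42e-07). The genes of the CAF1 subunits bound by the BTG domain, chosen for naming after their values were seen, both fell slightly, Cnot7 with a log2 change of -0.19 and Cnot8 with -0.22 (adjusted p = 0.00113 and 0.0011). Cnot6l and the scaffold gene Cnot1 rose by 0.34 and 0.33 on the log2 scale, calls that were lost with the length trend removed (adjusted p = 0.327 and 0.316). The balance of the list depended on scaling, with 4 higher and 4 lower for total counts alone and 3 of each with the length trend removed.

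Of 8 genes grouped as other deadenylases and poly(A)-binding proteins, 6 rose and none fell, with 2 short of the threshold (list median 0.36 on the log2 scale). With total counts alone 5 rose and 2 fell. The grouping is no statement on the enzyme activity of a member. Noct, which encodes the clock-linked protein nocturnin, rose 3.02-fold from 49.7 ± 2.49 to 149.8 ± 8.46 CPM (adjusted p = 2.36e-11), and Toe1, Pan2 and Pabpc4 rose by 0.53, 0.42 and 0.38 on the log2 scale. Toe1 shares 40.7% of its exon length with Tesk2 on the opposite strand. Pabpc1, which encodes the binding partner of TOB proteins, had 1144 and 1139 CPM (log2 change -0.01, adjusted p = 0.901; chosen for naming after its value was seen).

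Of 7 other BTG/TOB partners, 3 rose and 1 fell, with 3 short of the threshold (list median 0.13 on the log2 scale, and -0.0016 with total counts alone). Prmt1, which encodes the arginine methyltransferase that binds BTG1 and BTG2, fell 1.57-fold from 151 ± 6.68 to 95.9 ± 4.2 CPM (SD, n = 3; adjusted p = 4.77e-08). The BMP signal transducers Smad1 and Smad5, which TOB proteins restrain in bone, rose 1.89-fold and 1.47-fold, and the scarce Smad9 rose 1.84-fold.

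Of 13 tested GADD45-linked stress kinases, 6 rose and 4 fell, with 3 short of the threshold (list median -0.04 on the log2 scale); with total counts alone 3 rose and 7 fell. The p38 activators Map2k6 and Map2k3 rose 2.02-fold and 1.76-fold (adjusted p = 1.17e-08 and 1.46e-08), while Map2k4 and the p38 family gene Mapk13 had log2 changes of -0.38 and -0.65 (adjusted p = 1.31e-06 and 8.18e-06). Map3k4, whose product GADD45 proteins activate directly, had a log2 change of 0.33 (adjusted p = 3.21e-05; chosen for naming after its value was seen). Of 12 GADD45 nuclear partners, 5 rose and 6 fell, with 1 short of the threshold (list median -0.06 on the log2 scale). With total counts alone 4 rose and 6 fell, and with the length trend removed 3 rose and 6 fell. Ercc5, which encodes a repair nuclease, rose 2.06-fold, Cdkn1a, which encodes p21, rose 1.69-fold, and Ing1 fell 1.41-fold.

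Of 12 transcription factor genes known to act upstream of these families, 10 rose and 1 fell, with 1 short of the threshold (list median 0.45 on the log2 scale; 9 rose and 2 fell with total counts alone). Egr1 rose 200.2-fold, Foxo3 2.37-fold from 75.3 ± 3.96 to 178 ± 13.7 CPM, Atf4 1.97-fold and Rela 1.74-fold (adjusted p = 6.05e-16, 6.37e-10, 2.75e-09 and 3.56e-09). Trp53, chosen for naming after its value was seen, was the member that fell (log2 change -0.22). For these 12 genes, removal of the length trend left 8 higher, 1 lower and 3 short of the threshold, with a list median of 0.24. Of 13 G1 cyclins, CDKs and pocket proteins, 2 rose and 6 fell, with 5 short of the threshold (list median -0.09 on the log2 scale, and -0.25 with the length trend removed, when 1 rose and 9 fell). Ccne1 fell 2.23-fold, Cdk4 1.54-fold and Ccnd2 1.48-fold. Cdk4 shares 19.7% of its exon length with Tspan31 on the opposite strand, and Ccne2 shares 17.4% with Ints8 on the opposite strand. Ccne2 fell 1.59-fold with overlapping groups (adjusted p = 0.0196), and the call was lost without competent replicate 3 or without depleted replicate 2 or 3 (log2 changes -0.46, -0.59 and -0.60; adjusted p = 0.113, 0.0724 and 0.0733).

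**Figure D5:**
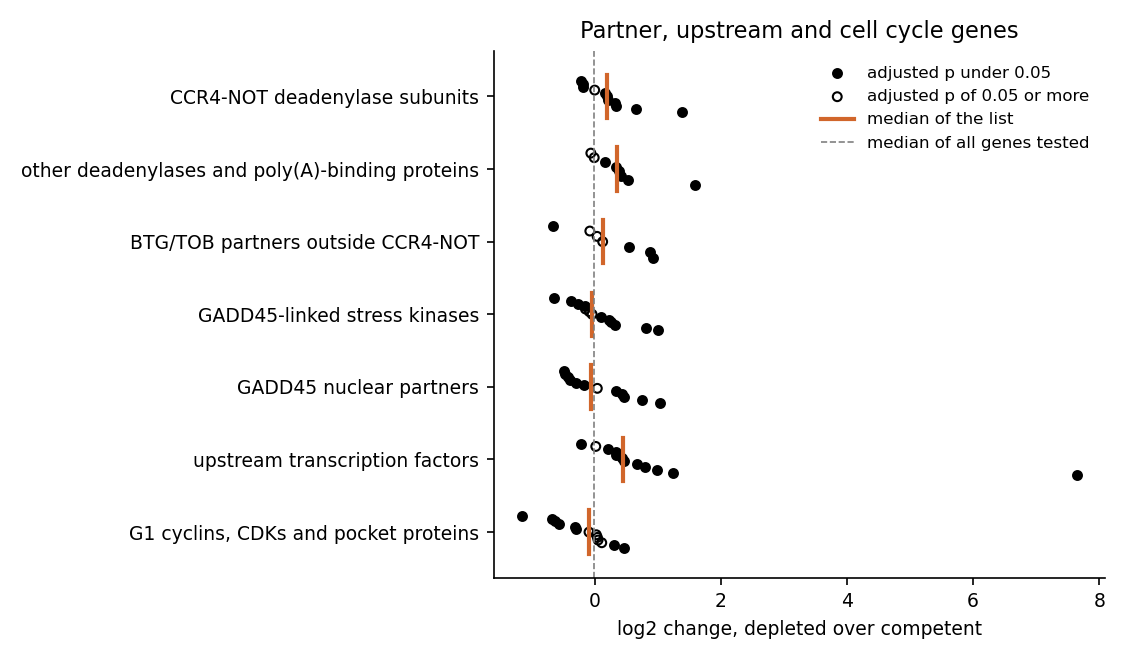
Log2 change (depleted over competent) of each tested gene in 7 lists of partner, upstream and cell cycle genes; filled points have adjusted p under 0.05, orange bars are list medians and the dashed line is the median of all genes. Apart from Egr1 at 7.65, all points lie within 2 log2 units of 0.

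Total counts ran from 26293486 to 36998935 per sample. Wdr35, named as the deleted gene from knowledge of the study and not by the labels, had 33.3 ± 1.98 CPM in competent and 28.0 ± 1.6 CPM in depleted cells, and whole-gene counts cannot show whether an exon was removed. The summed level of 9 biliary markers was 15409 to 16248 CPM in competent and 13251 to 14285 CPM in depleted samples, led by Krt8, Krt18 and Krt7; Krt19 (12.5 and 8.33 CPM) and Cftr (2.03 and 1.66 CPM) were low. Hepatocyte markers summed to 16.9 to 23.9 and 13.8 to 14.9 CPM. Mesenchymal markers summed to 2.09 to 3.05 and 2.92 to 3.88 CPM, with Col1a2 at 0 counts in every sample. Among them Col1a1 was higher in depleted samples (means 1.38 and 3.04 CPM) and Acta2 lower (1.29 and 0.344 CPM). The groups did not overlap for either gene. Leukocyte markers summed to 3.35 to 3.90 and 5.30 to 6.22 CPM, nearly all from Cd68, with Ptprc at 0.149 and 0.185 CPM and Adgre1 and Cd3e at or near 0. Endothelial markers stayed at or under 0.436 CPM. The sums of mesenchymal markers overlapped between the groups, whereas the other sums did not. The endothelial sums, up to 0.14 CPM in competent and 0.198 to 0.436 CPM in depleted samples, lay close to the floor of 3 counts. None of the endothelial genes passed the filter on low counts. The part of the marker genes in the members' differences was not tested. In bulk RNA, a change in the number of expressing cells and a change in RNA per cell cannot be told apart.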

How the data were processed

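Libraries were made from poly-A RNA with a directional kit, per the labels' protocols. The submitters' processing notes list STAR 2.7.1a, featureCounts, cutadapt 1.16, FastQC 0.11.9, MultiQC 1.3 and DESeq2 1.34.0, and the build GRCm38; not given in the sources used here are the annotation and strand setting. The authors deposited unnormalized whole-number counts for each gene. Columns named WT and KO were taken as competent and depleted by group and replicate number.

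Counts were tested with edgeR 4.0.16 (R 4.3.3; filterByExpr, TMM, quasi-likelihood F-test, two-sided, Benjamini-Hochberg adjustment over 13839 genes, threshold 0.05), with the group as the only term. Log2 changes are depleted over competent; SE is the log2 change divided by the square root of F. The code was tested on simulated counts. Symbols were found for 31976 of the 32061 genes; coordinates and lengths come from GENCODE M21 (32009 genes found). Alternatives were other scalings, DESeq2 1.42.0, limma-voom 3.58.1, other filters, a replicate block, leaving out each sample and removal of the length trend (loess, span 0.3, per library).

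Members and lists were chosen with earlier results of these data known. Named were the 8 members, Wdr35, from each list up to 4 called members ordered by size of change, and for the BTG/TOB and GADD45 genes with the largest change the 5 nearest profiles (mean log2 CPM of at least 2, pseudocount 0.1). A few others were named after their values were seen, as the text says at each. 1 gene named by this rule, a GADD45 nuclear partner that fell, is not reported here. Between samples of a group, chi-square per degree of freedom was 5.56 to 9.92, and each sample counted once. This value cannot show whether the samples were separate animals or cultures.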

Additional observations from a re-analysis of the deposited data

How the results depend on the processing

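Among the alternatives run, the median log2 change of the 8 members (1.89) moved by more than the spread between replicates under upper-quartile scaling (1.84), total counts alone (1.76) and removal of the length trend (1.96). With the length trend removed, 6 genes of the CCR4-NOT list passed in place of 10. The cause was not tested. Without a replicate, the members' median ran from 1.86 to 1.93 and the number of changed genes from 8929 to 9333, against 9576. The replicate block gave 9526 changed genes. Samples with the same number did not deviate together (r from -0.03 to 0.01). No sample correlated best with its own number, so the numbers were not taken as pairs. The adjusted p below 0.01 left 8317 genes. Levels per kb used all exons of a gene; the length of the main transcript was an alternative chosen after the data were seen. Depth did not limit the members, whose lowest count was 1491.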

Other observations

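Within groups the members were tight: the coefficient of variation of CPM over 3 samples ran from 0.805% (Btg3, competent) to 7.65% (Tob2, competent). The oocyte gene Btg4, the other row of the table with a BTG symbol and a count, had 0, 0 and 3 counts in competent and 1, 0 and 0 in depleted samples, at or under the floor of 3 counts.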
